A study of Mus musculus with 2 samples.

Results

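The 10 genes described here encode the machinery with which the testis makes testosterone, together with Insl3, the peptide hormone that Leydig cells release: Lhcgr, Scarb1, Star, Fdx1, Cyp11a1, Hsd3b1, Hsd3b6, Cyp17a1, Hsd17b3 and Insl3. They were taken by symbol from the gene lists of the deposited matrices, and all 10 were found among the 41459 genes listed. The study dissociated whole testes of 2 male mice at 55 days after birth, 1 Rad21l-/- (KO, lacking the meiotic cohesin subunit RAD21L) and 1 Rad21l+/+ (WT), and profiled each as 1 droplet library of single cells. No treatment was given, the strain is not stated in the sources used here, and the labels do not say which part of Rad21l the KO allele removes.

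Testosterone synthesis starts when luteinizing hormone binds its receptor LHCGR on Leydig cells, the endocrine cells between the seminiferous tubules. Cholesterol, taken up in part through the lipoprotein receptor SCARB1, is moved into mitochondria by STAR and cut to pregnenolone by CYP11A1, which receives electrons through ferredoxin (FDX1). HSD3B enzymes, CYP17A1 and HSD17B3 then carry the steroid to testosterone.

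The KO library held 7118 barcodes with 28001992 unique molecular identifiers (UMIs, tags that count each captured transcript once), and the WT library 5415 barcodes with 33096309. After filtering, 6381 KO and 5400 WT cells were kept, with median depths of 3460 and 2230.5 UMIs, and 14 barcodes occurred in both libraries. Rad21l itself had 109 UMIs in KO cells and 82 in WT cells. In the spermatogonia-like class it stood at 9.76 CPM (UMIs scaled to a class total of 1000000) in KO and 36.2 CPM in WT, and in the early prophase-like class at 16.3 and 74.9 CPM. Because the deleted part is not given, these counts do not check the genotype. With 1 library per genotype there is no replicate, so no test was possible. Intervals given below are 95% intervals that cover counting error only, and animal, library and genotype cannot be told apart.

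Cells were assigned to classes by the share of their UMIs that came from marker genes, none of which is 1 of the 10 genes. The Leydig-like class required at least 0.6% of UMIs from 16 Leydig markers, and it held 723 KO cells (11.3% of kept cells) and 7 WT cells (0.13%). In the KO library 15 of the 16 markers were at least 2 times higher in this class than in other cells, the exception being Avpr1a, and none was at 0. Because the same markers set the gate, this excess follows largely from the gate and is no separate check of the class. Just below the gate, between 0.5% and 0.6%, lay 71 KO cells, and 52 lay just above it, between 0.6% and 0.7%. Leydig-like cells were the deepest of the larger KO classes, with a median of 7234 UMIs. Markers of Sertoli cells made up 0.463% of the UMIs of KO Leydig-like cells and 0.444% of those of WT Leydig-like cells. Markers of elongating spermatids made up 0.000174% in KO and 0.648% in WT, and between 0.548% and 0.802% in each of the 7 WT cells. The part that such foreign RNA plays in the values below was not tested. An alternative that takes off an assumed 10% of the library profile is given at the end.

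In KO Leydig-like cells the 10 genes together supplied 22956 CPM (interval 22825 to 23087), that is about 2.3 of every 100 transcripts counted. In the 7 WT Leydig-like cells the sum was 24226 CPM (23006 to 25494). Cyp17a1, which encodes the enzyme that turns progestins into androgens, was the most abundant of the 10 at 6176 CPM in KO and 5823 CPM in WT. A UMI counts a captured transcript once whatever its length, so CPM values were not divided by length, and how well each transcript is captured may still differ between genes.

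**Figure D1:**
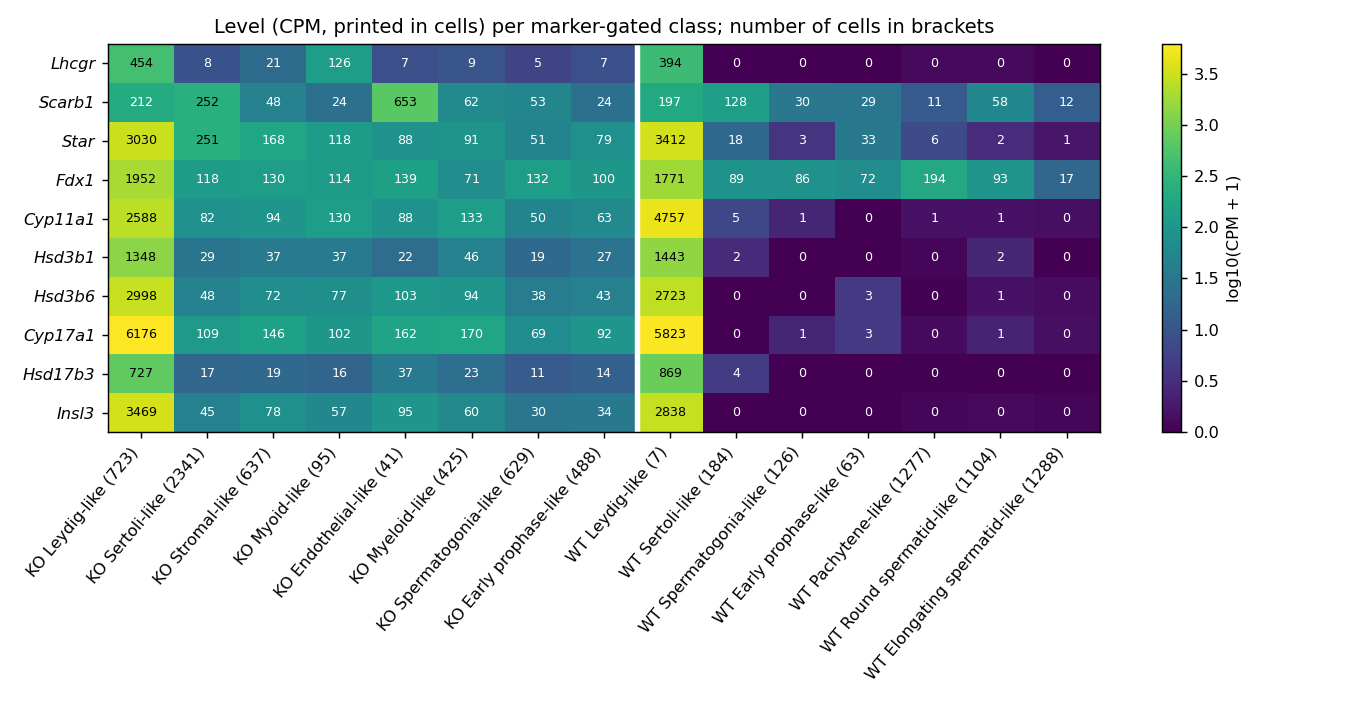
Level of each of the 10 genes (rows) in each marker-gated class (columns), KO classes on the left and WT classes on the right, as CPM printed in the cells, rounded to whole numbers, and coloured on a log10(CPM + 1) scale. The Leydig-like columns of both libraries carry the high values, Scarb1 stands out in KO endothelial-like cells at 653 CPM, and most enzyme genes are near 0 in WT germ cell classes while in KO they are above 10 CPM in every class drawn.

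Among the receptors, Lhcgr was concentrated in Leydig-like cells and Scarb1 was not. Lhcgr had 454 CPM (436 to 473) in KO Leydig-like cells and 13.5 CPM over all other KO cells, a log2 ratio of 5.07 (4.90 to 5.25). Scarb1 had 212 CPM (200.1 to 225) in KO Leydig-like cells and 150.3 CPM in other KO cells, a log2 ratio of 0.50 (0.40 to 0.60). Of its UMIs, 24.7% lay in Leydig-like cells, which held 18.8% of all kept KO UMIs.

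Scarb1 was higher in 2 other KO classes than in Leydig-like cells. It reached 653 CPM (525 to 804) in 41 endothelial-like cells and 252 CPM (243 to 262) in 2341 Sertoli-like cells. In WT, 184 Sertoli-like cells had 128 CPM (100.2 to 162), so the KO level was 1.97 times the WT level, a log2 ratio of 0.98 (0.63 to 1.34). The KO level differed with depth: it was 271 CPM (261 to 283) in the 1109 KO Sertoli-like cells of at least 4000 UMIs and 141 CPM (123 to 161) in the 1232 below that depth. The level of the shallower KO cells lies inside the WT interval, and the median depth of the WT cells was 1509.5 UMIs. The part of depth in the 1.97-fold difference was not tested. WT round spermatid-like cells had 57.5 CPM and WT pachytene-like cells 11.4 CPM. After each cell was reduced to 2000 UMIs, 62.1% of 29 KO endothelial-like cells (42.3% to 79.3%), 40.0% of 1231 KO Sertoli-like cells and 27.8% of 691 KO Leydig-like cells had a Scarb1 UMI. The same share was 5.36% in KO early prophase-like cells.

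Star, whose product delivers cholesterol to the inner mitochondrial membrane, had 3030 CPM (2983 to 3078) in KO Leydig-like cells and 3412 CPM (2964 to 3908) in WT Leydig-like cells. Its KO level was 15.8 times that of other KO cells, a log2 ratio of 3.98. Fdx1, the electron donor, had 1952 CPM in KO and 1771 CPM in WT Leydig-like cells. It also had the highest level of the 10 genes in the larger germ cell classes of both libraries: 132 CPM in KO spermatogonia-like cells against 85.5 CPM in WT spermatogonia-like cells, and 194 CPM (187 to 200.5) in WT pachytene-like cells. These 2 genes had the lowest Leydig-like over other ratios after Scarb1, at log2 3.98 for Star and 3.87 for Fdx1.

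The steroid enzymes and Insl3 were more narrowly placed. Cyp11a1, which makes pregnenolone, had 2588 CPM in KO Leydig-like cells and 102 CPM in other KO cells (log2 4.66). Hsd3b1 had 1348 and 39.0 CPM in those cells (log2 5.11), and Hsd3b6 had 2998 and 73.9 CPM (log2 5.34). Both encode 3-beta-hydroxysteroid dehydrogenases, which make progesterone from pregnenolone. For Cyp17a1 the log2 ratio was 5.30, for Hsd17b3, which performs the last step to testosterone, 5.07, and for Insl3, the hormone that drives testis descent, 5.48. Each of Lhcgr, Cyp11a1, Hsd3b1, Hsd3b6, Cyp17a1, Hsd17b3 and Insl3 had between 85.5% and 91.2% of its KO UMIs in Leydig-like cells.

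In all, 9 of the 10 genes were at least 2 times higher in KO Leydig-like cells than in other KO cells, with a median log2 ratio of 5.07. Over all 14791 genes with at least 50 UMIs, 10.1% were, and the median log2 ratio was -0.85. The gene that missed was Scarb1.

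**Figure D2:**
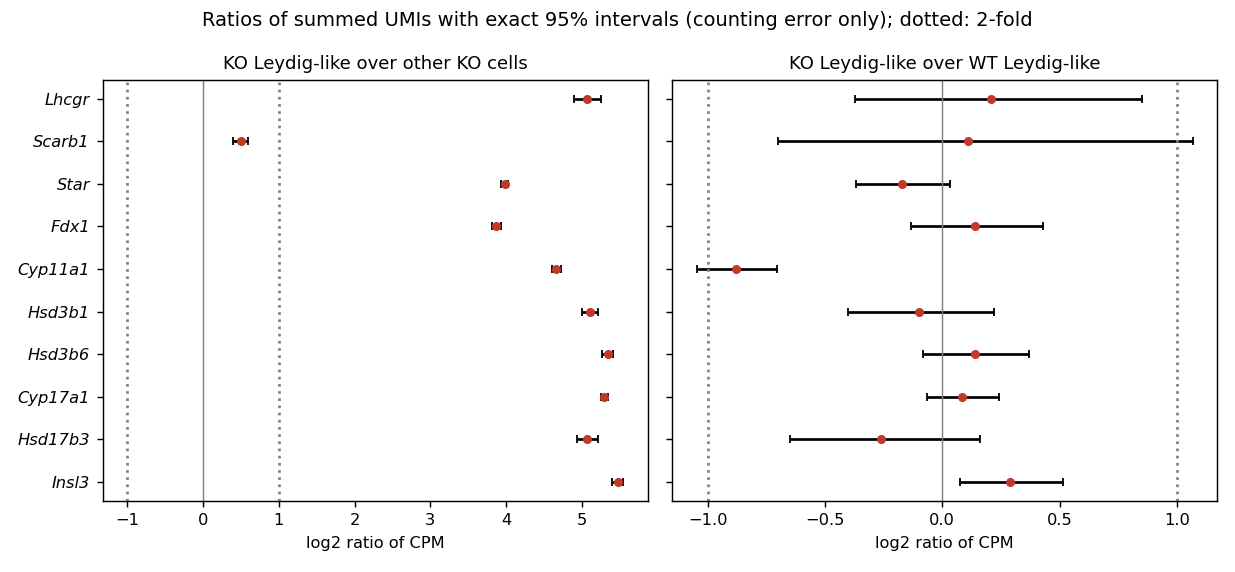
Log2 ratio of CPM for each gene, KO Leydig-like over other KO cells on the left and KO Leydig-like over WT Leydig-like cells on the right, with exact 95% intervals for counting error as bars and 2-fold as dotted lines. On the left 9 genes lie between 3.87 and 5.48 and Scarb1 at 0.50, and on the right Cyp11a1 lies lowest at -0.88.

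In the whole libraries the KO levels exceeded the WT levels for every one of the 10 genes. Insl3 had 716 CPM in KO cells and 5.44 CPM in WT cells, a ratio of 132. For Lhcgr, Star, Cyp11a1, Hsd3b1, Hsd3b6, Cyp17a1 and Hsd17b3 the ratio lay between 60.4 and 113. Scarb1 was 7.12 times higher and Fdx1 3.82 times higher in KO. Of all 22576 genes with enough UMIs, 43.8% were at least 2 times higher and 33.5% at least 2 times lower in KO, and their median log2 ratio was 0.54; measured from that median, the log2 ratios of the 10 genes ran from 1.39 for Fdx1 to 6.50 for Insl3. Leydig-like cells made up 11.3% of kept KO cells and 0.13% of kept WT cells, and from whole-library sums the number of cells and the RNA per cell cannot be told apart.

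Within the Leydig-like class, where 723 KO cells face 7 WT cells, the levels were much closer. Of 966 genes with enough UMIs for this comparison, 4.14% were at least 2 times higher and 3.21% at least 2 times lower in KO, and none of the 10 genes was past 2-fold in either direction. For 8 of them the interval of the log2 ratio spanned 0: Lhcgr at 0.21 (-0.37 to 0.85), Scarb1 at 0.11 (-0.70 to 1.07), Star at -0.17 (-0.37 to 0.03), Fdx1 at 0.14 (-0.13 to 0.43), Hsd3b1 at -0.10 (-0.40 to 0.22), Hsd3b6 at 0.14 (-0.08 to 0.37), Cyp17a1 at 0.09 (-0.07 to 0.24) and Hsd17b3 at -0.26 (-0.65 to 0.16). These intervals leave room for differences of the sizes they span, so equal levels are not shown. How many of the 966 genes had an interval that spans 0 was not counted. The 8 of 10 therefore has no background share beside it.

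For Cyp11a1 and Insl3 the counting interval did not span 0. Cyp11a1 had 2588 CPM (2544 to 2632) in KO Leydig-like cells, against 4757 CPM (4225 to 5337) in WT, a log2 ratio of -0.88 (-1.05 to -0.71). Insl3 had 3469 CPM in KO and 2838 CPM in WT, a log2 ratio of 0.29 (0.07 to 0.51). That interval covers counting error only and not the spread between cells or animals. In single cells of at least 4000 UMIs, scaled to 10000 UMIs, the Insl3 median was 33.7 over 644 KO cells and 30.8 over the 7 WT cells, 3 of which lay above the KO median, so the cells of both genotypes overlapped. On the same scale the Cyp11a1 median of the KO cells was 22.7, with 10th and 90th percentiles of 1.39 and 55.1. The 7 WT cells had a median of 49.9 and a highest value of 76.8, and all 7 lay above the KO median. Their raw Cyp11a1 counts were 47 of 6735 UMIs, 34 of 6818, 53 of 6897, 45 of 8757, 41 of 9129, 34 of 10632 and 36 of 12000. The KO and WT cells overlapped, since the 90th percentile of KO cells was above the WT median, and the 7 WT cells come from 1 animal.

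**Figure D3:**
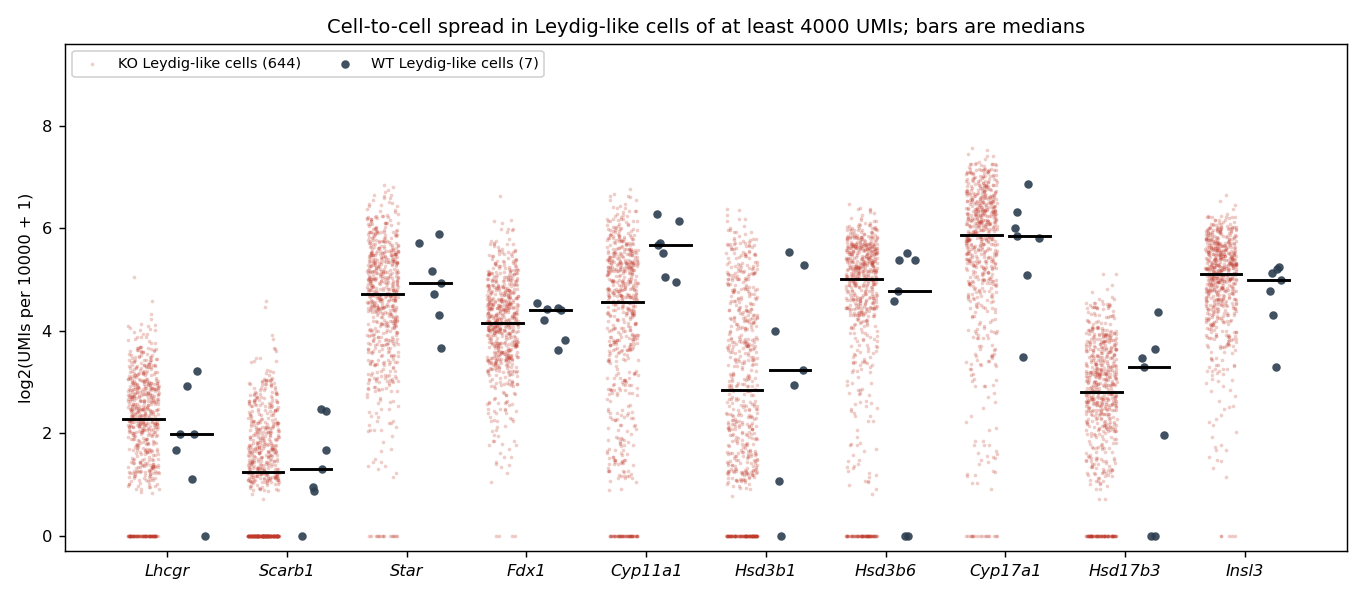
Each point is 1 Leydig-like cell of at least 4000 UMIs, 644 from KO (left of each pair) and 7 from WT (right), on a log2(UMIs per 10000 + 1) axis for each gene, with medians as bars. The WT cells fall inside the KO range for each gene, all 7 lie above the KO median for Cyp11a1, and 2 of them have no Hsd3b6 UMI.

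Outside the Leydig-like class, low counts of these genes appeared in every larger KO class. Hsd3b1, Hsd3b6, Cyp17a1, Hsd17b3 and Insl3 summed to 167 CPM in KO spermatogonia-like cells and 210 CPM in KO early prophase-like cells, germ cells that are not known to make steroids. In WT the same sum was 1.45 and 6.51 CPM, from 1 and 2 UMIs. The make-up of this 5-gene sum was compared between the KO classes. Cyp17a1 supplied 42.0% of it in Leydig-like cells, 43.9% in Sertoli-like, 41.6% in stromal-like, 43.3% in myeloid-like and 41.1% in spermatogonia-like cells. Its share was 35.2% (24.2% to 47.5%) in myoid-like and 38.6% (26.0% to 52.4%) in endothelial-like cells, whose sums hold 71 and 57 UMIs. Insl3 supplied 23.6% (23.3% to 23.9%) in Leydig-like cells and less, beyond counting error, in Sertoli-like (18.3%), spermatogonia-like (18.0%), early prophase-like (16.0%, 12.7% to 19.7%) and myeloid-like cells (15.4%, 12.1% to 19.1%). The make-up was thus not the same in every class. The level of each further gene was set against the 5-gene sum within each class, as a description; the part of RNA free in the cell suspension in these counts was not tested.

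Star stood highest against that sum in Sertoli-like cells. There were 0.206 Star UMIs per UMI of the 5-gene sum in KO Leydig-like cells, 0.335 in the KO germ cell classes together, 0.232 in myeloid-like and 0.480 in stromal-like cells, and 1.01 (0.960 to 1.07) in Sertoli-like cells. The Star level in KO Sertoli-like cells was 251 CPM (241 to 261), against 18.1 CPM (8.67 to 33.2, from 10 UMIs) in WT Sertoli-like cells. Here the KO level was 13.9 times WT for Star, 15.2 for Cyp11a1, 16.0 for Hsd3b1 and at least 20.05 for Cyp17a1. Cyp11a1 rests on 3 WT UMIs, Hsd3b1 on 1 and Cyp17a1 on 0. It was 4.69 times for Hsd17b3, 1.97 for Scarb1 and 1.34 for Fdx1, and the other genes had no WT UMI. Star was 17.6 times higher in KO among spermatogonia-like cells and 2.43 times among those of early prophase. Its 10 UMIs in WT Sertoli-like cells stood against 3 of the 5-gene sum. After thinning to 2000 UMIs, 28.1% of KO Sertoli-like cells had a Star UMI (25.6% to 30.7%), compared with 24.1% of KO stromal-like (19.7% to 28.9%), 21.9% of myoid-like (12.5% to 34.0%), 15.9% of myeloid-like and 12.3% of spermatogonia-like cells. The intervals of the Sertoli-like, stromal-like and myoid-like shares overlap. For Insl3 the share was 4.47% of Sertoli-like and 5.44% of spermatogonia-like cells. Without thinning the Star shares were 44.9% of Sertoli-like cells at a median of 2632 UMIs and 26.9% of spermatogonia-like cells at a median of 5682 UMIs.

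The ratio differed with depth within the Sertoli-like class. It was 1.55 in the 1109 KO cells of at least 4000 UMIs, from 2094 Star UMIs, and 0.399 in the 1232 below that depth, from 467 Star UMIs, which is near the value of the germ cell classes. The Star level was 241 CPM in the deeper cells and 311 CPM in the shallower ones, and Insl3 was at 31.4 and 125 CPM in them. In WT, Star exceeded the 5-gene sum in some germ cell classes, with 103 UMIs against 12 in pachytene-like cells (6.37 CPM) and 10 against 2 in early prophase-like cells (32.6 CPM). It was below the sum in others, with 8 UMIs against 14 in round spermatid-like and 6 against 8 in elongating spermatid-like cells. None of the 10 genes with the highest fold in the KO Sertoli-like class is among its 17 markers, and its median depth of 2632 UMIs was below that of the KO library.

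Lhcgr stood highest against the sum in myoid-like cells, the class with markers of contractile cells around tubules and vessels. The 95 KO myoid-like cells held 31 Lhcgr UMIs, a level of 126 CPM (85.8 to 179), and 0.437 per UMI of the 5-gene sum (0.277 to 0.675). The ratio was 0.031 in KO Leydig-like, 0.032 in Sertoli-like and 0.030 in spermatogonia-like cells. In stromal-like cells it was 0.059 (0.039 to 0.087), an interval that also lies above the Leydig-like value. Of 64 myoid-like cells thinned to 2000 UMIs, 20.3% had an Lhcgr UMI (11.3% to 32.2%), against 4.01% of stromal-like and 1.40% of spermatogonia-like cells. The level was 239 CPM in the 11 deepest myoid-like cells and 97.2 CPM in the other 84. WT had 4 myoid-like cells, too few for a comparison.

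The Cyp11a1 ratio to the 5-gene sum was 0.176 in KO Leydig-like cells and 0.333 in Sertoli-like, 0.339 in myeloid-like, 0.268 in stromal-like and 0.298 in spermatogonia-like cells. It was 0.451 (0.287 to 0.693) in myoid-like cells, the highest of these, and 0.211 (0.103 to 0.397) in endothelial-like cells, where the interval holds the Leydig-like value.

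**Figure D4:**
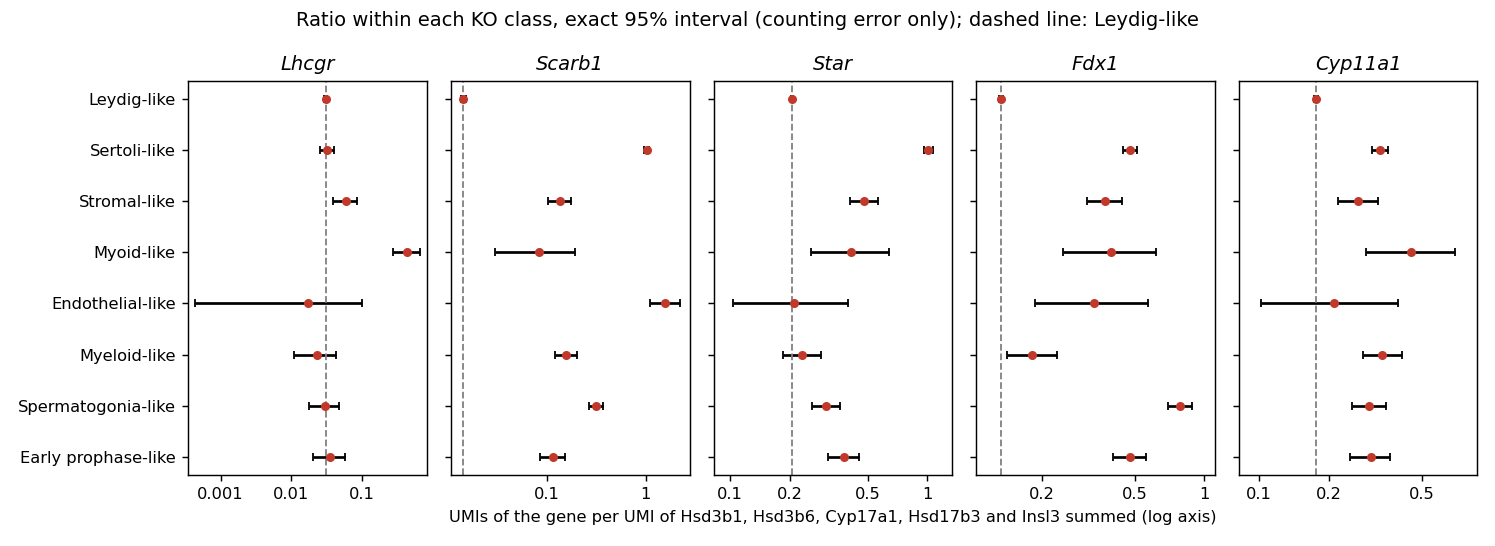
UMIs of Lhcgr, Scarb1, Star, Fdx1 and Cyp11a1 per UMI of the summed Hsd3b1, Hsd3b6, Cyp17a1, Hsd17b3 and Insl3 in each KO class, on log axes, with exact 95% intervals and the Leydig-like value as a dashed line. Lhcgr is farthest from the line in myoid-like cells at 0.437, Star in Sertoli-like cells at 1.01 and Scarb1 in endothelial-like cells at 1.56. The Lhcgr interval of stromal-like cells (0.039 to 0.087) also lies above the line.

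Most of the 10 genes varied from cell to cell inside the KO Leydig-like class by more than counting noise. In 691 cells thinned to 2000 UMIs, 1 cell held between 1 and 94 UMIs of the 10 genes, with a mean of 44.7 ± 17.8 (SD over cells). Variance over mean, which is 1 for counting noise alone, was 6.63 for Cyp17a1, 5.02 for Hsd3b1, 4.39 for Cyp11a1, 3.79 for Star, 3.45 for Hsd3b6, 2.55 for Insl3, 2.22 for Fdx1 and 1.54 for Hsd17b3. It was 1.33 for Scarb1 and 1.11 for Lhcgr, whose low counts allow little to be seen above counting noise. So 8 of the 10 were past 1.5, against 3.83% of the 3262 genes with a mean of at least 0.1 UMI, whose median was 1.04. Variance over mean grows with the mean of a gene that varies between cells, and these genes are among the most abundant of the class. The coefficient of variation left after counting noise is free of that dependence, and it was 1.22 for Hsd3b1, 0.93 for Scarb1, 0.82 for Cyp11a1, 0.70 for Star, 0.68 for Cyp17a1, 0.64 for Hsd3b6, 0.63 for Hsd17b3, 0.56 for Fdx1, 0.49 for Insl3 and 0.36 for Lhcgr.

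Hsd3b1 had a distribution unlike that of Hsd3b6. It was at 0 in 37.8% of thinned KO Leydig-like cells, where counting noise around its mean would give 6.70%, and it reached 22 UMIs in 1 cell. Hsd3b6 was at 0 in 15.2% (0.254% from counting noise), and Insl3 in 4.05%. Cyp17a1 was at 0 in 53 of the 691 cells and Cyp11a1 in 129.

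Across those 691 cells most pairs of the 10 genes were weakly related. Spearman's rho over the 45 pairs had a median of 0.11, as a description of cells that share 1 library and 1 depth. The highest value was 0.37, between Cyp17a1 and Insl3, followed by 0.30 between Star and Insl3 and 0.29 between Cyp11a1 and Cyp17a1. Only 2 pairs were below -0.2: Hsd3b1 with Hsd3b6 at -0.37, and Cyp11a1 with Hsd3b6 at -0.21.

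Cell by cell, the negative relation of the 3-beta-hydroxysteroid dehydrogenase genes was partial, and many cells held both. Of 644 KO Leydig-like cells with at least 4000 UMIs, 64 had no Hsd3b6 UMI, 106 had no Hsd3b1 UMI, and 6 had neither. With 10 UMIs per 10000 as the mark, 344 cells had Hsd3b6 alone at or above it, 94 had Hsd3b1 alone, 170 had both and 36 neither. Among the 7 WT Leydig-like cells, the 2 with no Hsd3b6 UMI held 31 and 26 Hsd3b1 UMIs, and the other 5 held 20 to 49 Hsd3b6 UMIs with 0 to 13 of Hsd3b1.

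**Figure D5:**
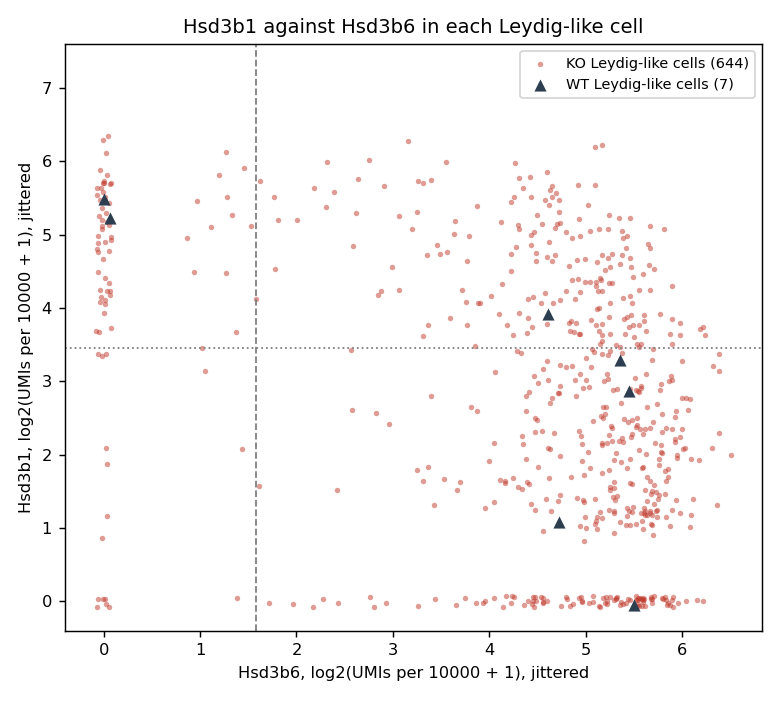
Hsd3b1 (vertical) against Hsd3b6 (horizontal) in each Leydig-like cell of at least 4000 UMIs, both as log2(UMIs per 10000 + 1) with a little jitter, 644 KO cells as circles and 7 WT cells as triangles. The dashed line marks 2 Hsd3b6 UMIs per 10000 and the dotted line 10 Hsd3b1 UMIs per 10000; the column of cells at 0 Hsd3b6 lies mostly above the dotted line, and 2 WT cells lie in it.

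A group of KO Leydig-like cells with under 2 Hsd3b6 UMIs per 10000 was set apart after these values were seen, so what follows is a description. It held 81 of the 644 cells (12.6%, 10.1% to 15.4%), with a median depth of 7559 UMIs against 7541 in the other 563. Hsd3b6 was low in it by the choice of cells, at 28.8 CPM, and stood at 3462 CPM in the rest and 38.2 CPM in KO spermatogonia-like cells. Hsd3b1 was at or above 10 UMIs per 10000 in 65 of the 81 cells (80.2%) and in 199 of the 563 (35.3%). Cyp11a1 had 4964 CPM in the Hsd3b6-low cells and 2272 CPM in the rest, and the rest of the 10 genes differed less, with Cyp17a1 at 6027 and 6250 CPM and Insl3 at 2590 and 3646 CPM.

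Over all 3960 genes with at least 200 UMIs, 0.429% were at least 2 times higher and 1.36% at least 2 times lower in the Hsd3b6-low cells. Hsd3b6, by which the cells were split, is counted among the lower ones. Among the higher ones were Agt, which encodes angiotensinogen (3078 and 965 CPM), Inha, which encodes the inhibin alpha subunit (982 and 317 CPM), and Pgbd5 (362 and 80.7 CPM). Also lower was Mgp, which encodes matrix Gla protein (35.2 and 134 CPM) and is part of the stromal marker share given below. So were Dpep1 (11.2 and 64.9 CPM), Nupr1 (12.8 and 59.4 CPM) and Ebf1, a transcription factor gene (25.6 and 95.6 CPM). The 16 Leydig markers made up 1.76% of UMIs in the Hsd3b6-low cells and 1.48% in the rest, and the 17 Sertoli markers 0.542% and 0.447%. The 12 stromal markers made up 0.0511% and 0.108%, the 10 myoid markers 0.0199% and 0.0406%, and the 13 myeloid markers 0.00416% and 0.00940%. The part of these other cell types in the differences was not tested.

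The start regions of Hsd3b6 and Hsd3b1 are shown because their transcripts had a negative rho over cells while the genes lie near each other on chromosome 3. The windows run from 250 bases before the start to 50 after it, on the minus strand of RefSeq GRCm38.p6, chr3:98814394-98814693 for Hsd3b6 and chr3:98859745-98860044 for Hsd3b1.
Hsd3b6: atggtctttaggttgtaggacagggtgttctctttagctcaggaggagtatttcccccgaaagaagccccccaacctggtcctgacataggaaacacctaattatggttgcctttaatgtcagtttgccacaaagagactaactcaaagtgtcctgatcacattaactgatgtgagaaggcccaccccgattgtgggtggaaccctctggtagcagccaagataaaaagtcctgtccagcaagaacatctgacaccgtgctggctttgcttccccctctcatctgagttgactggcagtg
Hsd3b1: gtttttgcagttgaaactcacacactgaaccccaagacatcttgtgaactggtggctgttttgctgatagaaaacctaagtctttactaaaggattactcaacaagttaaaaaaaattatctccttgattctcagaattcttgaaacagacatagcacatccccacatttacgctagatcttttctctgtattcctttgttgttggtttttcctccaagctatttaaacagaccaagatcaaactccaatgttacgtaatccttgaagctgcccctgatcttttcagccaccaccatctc
The reference transcripts of Hsd3b1 and Hsd3b6 matched at 84.0% of aligned positions, and at 69.5% over their last 400 bases. A read could fit both genes only where they match. How such reads were counted is not given in the sources used here.

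Insl3 had the highest Leydig-like over other ratio of the 10 genes, and its start region on the plus strand, chr8:71689002-71689301 in RefSeq GRCm38.p6, is shown with matches to CAAGGNC in capitals. These letters are the core of the element that the nuclear receptor NR5A1 (SF-1), a regulator of steroidogenic genes, is known to bind.
Insl3: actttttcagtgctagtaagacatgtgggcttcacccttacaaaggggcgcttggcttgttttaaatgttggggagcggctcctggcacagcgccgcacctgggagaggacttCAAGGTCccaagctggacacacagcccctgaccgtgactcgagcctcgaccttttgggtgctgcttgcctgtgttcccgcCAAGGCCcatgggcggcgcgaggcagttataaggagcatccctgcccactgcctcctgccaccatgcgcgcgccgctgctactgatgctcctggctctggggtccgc
The search covered both strands. Start regions were matched for 7 of the 10 genes, in 8 windows: Lhcgr, Fdx1, Cyp11a1 (2 windows), Hsd3b1, Hsd3b6, Hsd17b3 and Insl3. Insl3 had 2 matches, 137 to 131 and 57 to 51 bases before the start, Fdx1 had 1, and the other windows had none. Of all 32851 start regions of that length, 17.8% held CAAGGNC. The longer forms CAAGGTCA and CAAGGCCA occurred in 3.92% of all start regions and in 0 of the 8 windows. A match is a run of letters and says nothing of binding.

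Around the 10 genes, 62 others of the pathway were followed, from transcription factors to cholesterol supply and cyclic AMP signalling. Of these, 44 had at least 50 UMIs, and 19 of them (43.2%) were at least 2 times higher in KO Leydig-like cells than in other KO cells, where 10.1% of all genes were. At least 2 times lower were 5 (11.4%), compared with 45.3% of all genes, and 20 lay between. The median log2 ratio was 0.82, against -0.85 for all genes tested.

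Among pathway genes with at least 50 UMIs in KO Leydig-like cells themselves, a stricter limit, the highest was Mrap, whose product brings the ACTH receptor to the cell surface, with 426 CPM in KO Leydig-like cells and 15.4 CPM in other KO cells (log2 4.79). Esr1, the oestrogen receptor alpha gene, had 128 and 7.57 CPM (log2 4.08). Fdxr, which passes electrons to FDX1, had 344 and 66.6 CPM (log2 2.37). Hsd17b10 (log2 2.59), Hsd17b7 (log2 2.49), Pde8b, a cyclic AMP phosphodiesterase gene (log2 2.36), and the transcription factor gene Cebpb (log2 2.33) were also among the highest 8. Nr5a1, the SF-1 gene, was at 207 and 61.2 CPM (log2 1.76).

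Under the same limit the lowest 4 were Nr0b1, which encodes the repressor DAX-1, Gata6, Stard3 and Creb1. Nr0b1 had 12.7 CPM in KO Leydig-like cells and 75.7 CPM in other KO cells (log2 -2.57), with its highest KO level, 145 CPM, in Sertoli-like cells. Gata6, a GATA factor gene, had 11.4 and 35.9 CPM (log2 -1.66). Stard3, which encodes a late endosomal cholesterol carrier, had a log2 ratio of -1.45, and Creb1, which encodes a cyclic AMP response factor, -1.25. The limit leaves out Akr1c14 (log2 2.44, from 29 UMIs in KO Leydig-like and 23 in other KO cells) and Hsd17b1 (log2 -1.72, from 4 and 57 UMIs), which would otherwise stand among the highest 8 and the lowest 4. Cyp19a1, the aromatase gene, had no UMI in any kept KO cell.

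Other genes were compared with the summed 10 over the 8 larger KO classes. The 8 with the highest Pearson correlation of log2(CPM + 10) were Scd1, a fatty acid desaturase gene (r = 0.99), Gsta3, Ptgds, Lcn2, Mt3, Cstdc2, Bpifb5 and Oxtr, the oxytocin receptor gene (r = 0.98). These 8 points share 1 library and its free RNA. The Leydig-like class weighs most in r, since the summed 10 had 22956 CPM there and at most 1395 CPM in the others of the 8. A high r for these picked genes thus shows little beyond a high level in Leydig-like cells. Lcn2, which encodes lipocalin 2, had 8567 CPM in KO Leydig-like cells and 249 CPM in other KO cells, more UMIs than Cyp17a1. Ptgds, the prostaglandin D synthase gene, had 2806 and 114 CPM. Lcn2 and Ptgds also exceeded every one of the 10 genes in variance over mean between KO Leydig-like cells, at 16.9 and 15.2.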

How the data were processed

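Cells of whole testis were loaded on a 10x Genomics Chromium chip and sequenced on an Illumina instrument, per the labels' protocols. What the authors deposited are unnormalized counts of UMIs for each gene in each barcode. The submitters' processing notes name Cell Ranger 6.1.2, Seurat 4.3 and GRCm39. How the authors called barcodes as cells, and the chemistry, are not given in the sources used here. The filter asked for at least 500 genes and at most 20% of UMIs from 24 mitochondrial genes (KO: 709 and 28 left out; WT: 8 and 7). A cell joined a class when markers of 1 of 13 lists (149 genes) passed a share of its UMIs and at least 3 markers were detected. The shares were set after the data were seen. Cells past the gates of 2 classes that cannot be stages of 1 lineage (206 KO, 63 WT) and cells past none (782 KO, 1270 WT) joined no class but stayed in library sums. No doublets were removed in the main values: Scrublet in Scanpy 1.11.5 marked 2.29% of KO cells but 0.0185% of WT cells, where it had not worked, so leaving out the 5% of highest scores was tried as an alternative.

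UMIs were summed per class and scaled to CPM. Intervals are at 95% and cover counting error only: Poisson for levels, Clopper-Pearson for shares and the conditional binomial for ratios, each in its exact form. For ratios over all genes, counts under 3 were set to 3, with at least 50 UMIs required within KO and at least 10 expected UMIs in the smaller library between genotypes. For shares, variance and correlations each cell was thinned to 2000 UMIs (SciPy 1.17.1, NumPy 2.4.6). On simulated data the ratio step recovered known ratios between summed profiles, and the variance step known values of variance over mean. Those counts were drawn directly, so the gates, thinning, shares and correlations were not checked by them. All 10 genes are named, with the 8 highest and 4 lowest of the pathway list that had at least 50 UMIs in KO Leydig-like cells, and 8 genes of like pattern with at least 200; Nr5a1, Cyp19a1, Akr1c14, Hsd17b1 and the genes of the Hsd3b6-low cells were named after their values were seen. Of the genes this rule names, 1 is not reported here. The genes and lists were chosen with earlier results of these data known.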

Additional observations from a re-analysis of the deposited data

Results flagged for a closer look

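The KO barcodes that the filters left out carried the 10 genes at 2499 CPM (2361 to 2643), from 1227 UMIs in 737 barcodes. These barcodes enter no comparison above. Over all kept KO cells the same sum was 5100 CPM, above the level of the left-out barcodes. The 15 left-out WT barcodes held 2 such UMIs, 121 CPM.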

How the results depend on the processing

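The count of 9 of 10 genes at least 2 times higher in KO Leydig-like cells than in other KO cells was the same under all alternatives run on it, and no ratio changed sign. The 19 pathway genes past 2-fold stayed between 18 and 21. The median log2 ratio of 5.07 became 5.26 with at least 1000 genes per cell, 4.74 with gates raised 1.5 times, 4.01 with gates lowered 1.5 times (where more cells pass 2 gates and 613 KO Leydig-like cells remain), 5.25 with cells past 2 gates kept, 6.84 with 10% of the library profile taken off as free RNA, 5.39 without the 5% of highest doublet scores, 5.51 with Leiden clusters and 5.43 in cells of at least 4000 UMIs, an alternative chosen after seeing the data. The summed level of 22956 CPM became 23606, 23382, 22746, 22446, 23244, 21917 and 23207 CPM under gates raised, gates lowered, cells past 2 gates kept, free RNA taken off, doublet scores left out, clusters and deep cells. The background of 10.1% of genes became 10.8% with free RNA taken off, 11.9% in deep cells and 32.8% with no minimum of UMIs, where the floor of 3 counts sets the ratio of rare genes.

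In all kept cells, the median over the 10 genes of the log2 KO to WT ratio, 6.54, became 6.002 with the median gene at 0. The median share of 83.1% became 75.0% when thinned to 1000 UMIs and 89.3% without thinning. Median variance over mean of 3.00 became 1.99 at 1000 UMIs and 4.82 at 4000, since it grows with depth. The rho of Hsd3b1 with Hsd3b6 became -0.27 with Leiden clusters, which hold 799 KO Leydig-like cells, 715 of them shared with the gate. The cause of these changes was otherwise not tested. For Cyp11a1 the log2 ratio in Leydig-like cells stayed between -0.91 and -0.82. Star per UMI of the 5-gene sum in KO Sertoli-like cells was 1.01. Free RNA aside, it ran from 0.912 with at least 200 genes to 1.55 in deep cells. With free RNA taken off, the 5-gene sum fell close to 0, so the ratio rose to 92.9, while Star stood at 178 CPM. Lhcgr in myoid-like cells, 126 CPM, became 239 CPM in 11 cells of at least 4000 UMIs. No paired analysis was possible because each genotype has 1 library. The WT Leydig-like values rest on 7 cells of 1 animal, with 60968 UMIs.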
